A study of Homo sapiens with 6 samples.

Results

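The genes described here encode the AP-1 transcription factor family, measured by RNA sequencing in breast cells before and after decitabine (DAC), a deoxycytidine analog that traps DNA methyltransferases and thereby lowers DNA methylation. The members were chosen by gene symbol: FOS, FOSB, FOSL1, FOSL2, JUN, JUNB, JUND, ATF3, BATF and BATF3, which are 10 of the 23617 gene symbols of the MDA-MB-231 table. They were chosen with earlier results of these data known, so the shares of all genes given beside their counts serve as description only. MDA-MB-231 is an established line from a breast cancer and HMLER cells are human mammary epithelial cells transformed in culture, grown with EGF, hydrocortisone and insulin. In each line, cells given 10 µM DAC every day and collected 72 h after the start were compared with untreated cells, the question being which genes the drug brings up. HMLER had 2 libraries per condition and MDA-MB-231 had 1 library per condition, each made from poly(A) RNA pooled over several extractions. The untreated MDA-MB-231 library carries this name in its title, whereas another of its labels gives a different line number.

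AP-1 is a dimer of basic leucine zipper (bZIP) proteins. FOS proteins do not pair with each other and bind DNA with a JUN partner, whereas JUN proteins can also pair among themselves, and ATF3, BATF and BATF3 join JUN proteins as well. FOS, FOSB, JUN, JUNB and ATF3 are immediate early genes, transcribed within minutes of growth factor or stress signals, and in breast cancer FOSL1 (also called FRA-1) is known for its high level in mesenchymal-like cells.

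Levels are FPKM, in which the fragments of a transcript are divided by its length and by the mapped fragments of the library, so that genes can be compared. Each value came with the lower and upper bound that Cuffdiff, the authors' program, attached to it. In MDA-MB-231, no replicate stands behind a difference, no p-value is given, and the bounds are the error available. A gene was called higher or lower when its largest transcript differed by more than 2-fold and reached 1 FPKM in at least 1 condition, and log2 changes were taken after adding 1 FPKM, which understates the change of low genes. Of 10 members, 9 reached that level. The largest transcripts of FOSB and ATF3 did so only after DAC, so they could only have been called higher. Summed over its transcripts, ATF3 was above 1 FPKM in both conditions, at 2.63 and 8.04 FPKM. Low values fell on whole-read steps, which gave 42576980 fragments as the scale of the untreated and 42279982 as that of the DAC library. In bulk RNA, a change in the number of cells that express a gene and a change in RNA per cell cannot be told apart.

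In MDA-MB-231 cells, 5 of the 9 members were called higher after DAC, namely FOS, FOSB, JUNB, JUND and ATF3, beside 11.5% of all 12396 genes that reached 1 FPKM. Another 2, FOSL1 and JUN, were called lower, beside 5.86% of all genes. These were the family's most abundant members before treatment. FOSL2 and BATF3 passed neither threshold. When the bounds of the conditions also had to stay apart, FOS and JUNB were left as higher, beside 1.06% of all genes, and FOSL1 and JUN as lower, beside 0.379%. The median log2 change of the 9 members was 1.28, against −0.09 over all genes that reached 1 FPKM. It was 0.18 when 1 FPKM was required in both conditions, which leaves out FOSB and, on its largest transcript, ATF3. It was 0.83 over all 10 members with no filter.

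**Figure D1:**
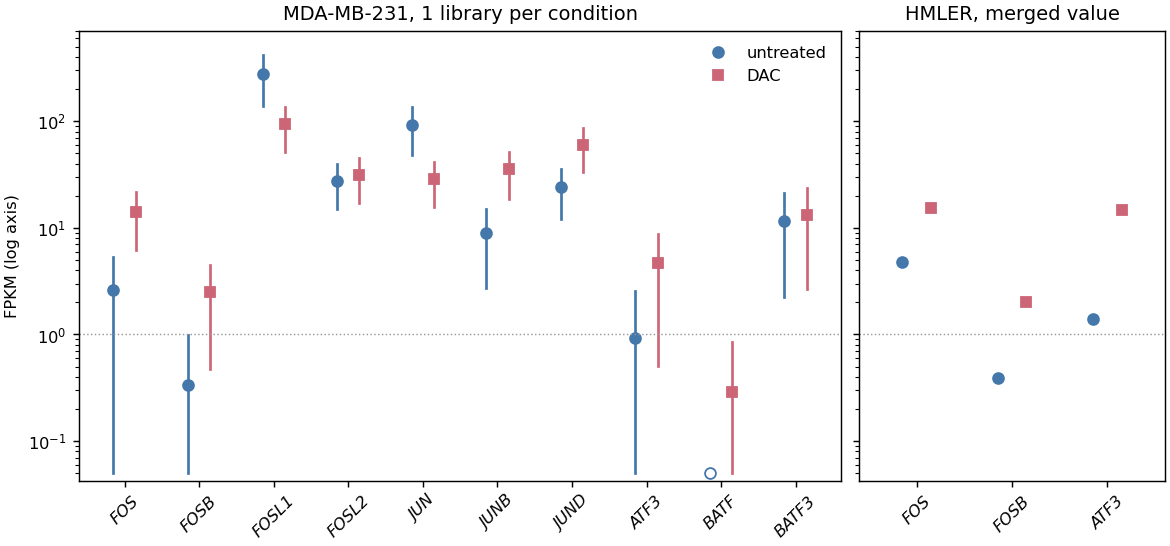
FPKM of each AP-1 member (log axis) in the untreated and DAC-treated MDA-MB-231 libraries, with the Cuffdiff bounds as bars, and of the 3 listed members in HMLER (right, merged values; ATF3 by its largest transcript); the dotted line marks 1 FPKM, and bounds of 0 and the BATF value of 0 (open circle) are drawn at the floor of the axis. FOSL1 and JUN stand highest before treatment at 280 and 91.9 FPKM and are lower after it, while FOS, JUNB and JUND are higher.

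Among the FOS proteins, FOS itself, the prototype immediate early gene at hg19 chr14:75745529-75748933 on the plus strand, measured 2.64 FPKM in the untreated library (bounds 0 and 5.29) and 14.1 FPKM after DAC (6.25 and 21.9). The bounds did not overlap. Gene positions here and for the other members are those of the GENCODE annotation lifted to hg19. The log2 change of 2.05 was exceeded by 194 of the 12396 genes. About 220 reads lay behind the untreated value and 1163 behind the other, a ratio of 5.32 with a 95% exact interval of 4.61 to 6.18 that covers counting error alone. FOSB, at chr19:45971253-45978437 on the plus strand, whose product is induced by similar stimuli, stood at 0.334 FPKM (0 and 0.999) before DAC and 2.49 FPKM (0.471 and 4.51) after it. Its bounds overlapped, although the reads numbered about 51 and 377. Of its transcripts, NM_006732 held 99.8% of the untreated FOSB value and nearly all of the treated value.

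FOSL1, at chr11:65659520-65668044 on the minus strand, was the most abundant member in both libraries. It measured 279.6 FPKM untreated (137.8 and 421) and 94.8 FPKM after DAC (52.1 and 137.5), so the treated level was 2.95-fold lower. The bounds were separated by only 0.204 FPKM. With about 17475 and 5884 reads, the counting interval of the ratio was 0.329 to 0.349. The log2 change of −1.55 was exceeded in the downward direction by 150 genes. FOSL2 (FRA-2), a close relative of FOSL1 at chr2:28615315-28640184 on the plus strand, measured 27.5 FPKM (15.1 and 39.9) and 31.4 FPKM (17.2 and 45.5), with broadly overlapping bounds and a log2 change of 0.18. The FRA genes thus differed in their values: FOSL1 was lower in the treated library, and FOSL2 was 1.14 times its untreated level.

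Among the JUN proteins, JUN, the founding gene of its family and the partner of FOS in the classical AP-1 dimer, lies at chr1:59242517-59249720 on the minus strand. It measured 91.9 FPKM untreated (48.2 and 136) and 28.6 FPKM after DAC (15.7 and 41.5), 3.22-fold lower, and the bounds did not overlap. In all, 133 of the 12396 genes had a more negative log2 change than its −1.65. JUNB, whose product can restrain JUN activity, and JUND, known for its steady expression in resting cells, were both called higher. JUNB, at chr19:12902300-12904129 on the plus strand, measured 8.95 FPKM (2.75 and 15.2) before and 35.3 FPKM (18.7 and 52.0) after DAC, 3.95-fold higher with bounds apart. JUND, at chr19:18390504-18392432 on the minus strand, measured 24.1 FPKM (12.0 and 36.1) and 60.1 FPKM (33.2 and 86.9), 2.50-fold higher, and its bounds overlapped between 33.2 and 36.1 FPKM. Behind these values were about 12226 and 3776 reads for JUN, 616 and 2415 for JUNB, and 1711 and 4240 for JUND.

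Since DAC acts on CpG methylation, the 250 bases before the annotated start of the 3 higher members with the highest levels and of JUN, called lower, are shown for comparison, 5′ to 3′ on the gene's strand, with CpG dinucleotides in capitals. They are RefSeq sequence of build GRCh38.p14, at chr14:75278578-75278827 (plus) for FOS, chr19:12791236-12791485 (plus) for JUNB, chr19:18281623-18281872 (minus) for JUND and chr1:58784048-58784297 (minus) for JUN.
FOS: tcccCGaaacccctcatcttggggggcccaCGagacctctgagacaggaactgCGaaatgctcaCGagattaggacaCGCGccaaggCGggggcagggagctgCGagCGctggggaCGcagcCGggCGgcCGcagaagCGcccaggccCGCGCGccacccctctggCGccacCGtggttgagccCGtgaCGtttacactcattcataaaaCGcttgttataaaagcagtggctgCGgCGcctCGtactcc
JUNB: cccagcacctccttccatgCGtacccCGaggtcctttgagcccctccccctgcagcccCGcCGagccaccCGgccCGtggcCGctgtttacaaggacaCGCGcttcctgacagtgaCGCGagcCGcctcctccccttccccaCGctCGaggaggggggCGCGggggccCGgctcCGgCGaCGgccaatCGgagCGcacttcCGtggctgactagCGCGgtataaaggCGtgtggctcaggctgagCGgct
JUND: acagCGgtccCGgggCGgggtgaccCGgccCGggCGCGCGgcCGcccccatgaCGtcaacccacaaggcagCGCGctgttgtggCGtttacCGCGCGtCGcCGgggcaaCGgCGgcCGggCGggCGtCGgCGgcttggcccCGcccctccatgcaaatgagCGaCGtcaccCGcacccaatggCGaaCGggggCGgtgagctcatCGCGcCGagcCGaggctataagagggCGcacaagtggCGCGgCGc
JUN: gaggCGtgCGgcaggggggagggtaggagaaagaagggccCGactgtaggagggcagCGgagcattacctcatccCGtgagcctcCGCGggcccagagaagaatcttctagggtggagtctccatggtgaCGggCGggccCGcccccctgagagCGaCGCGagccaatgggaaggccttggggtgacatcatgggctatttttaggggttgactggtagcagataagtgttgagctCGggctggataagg
These runs hold 25, 27, 40 and 14 CpGs, respectively. The RefSeq table matched 8 of the 10 members with 9 promoters, without FOSL1 and BATF3. Over windows of 300 bases (250 before and 50 after the start), the ratio of observed to expected CpG was 1.11 for JUND, above 97.7% of 35116 promoters, and 0.957 for FOS. It was 0.770 for JUNB, 0.619 for JUN and 0.0633 and 0.239 for the ATF3 promoters, against a median of 0.579. FOSB, called higher, was at 0.763, FOSL2, not called, at 0.820, and BATF, under 1 FPKM, at 0.443. The members called higher thus lay on both sides of JUN, with ATF3 lowest, and FOSL2 and BATF lay within the range of the higher members. DNA methylation was not measured in these libraries.

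The same windows were searched on either strand for the AP-1 site TGACTCA, its cAMP-response variant TGACGTCA, the variant TGACATCA known from the JUN promoter, and TATAAA, the core of the TATA box. The AP-1 site TGACTCA was found in the window of FOSL2 alone among the members and in 4.95% of all promoters. TGACGTCA began at position −200 of JUND, counted from the start site, and occurred in 1.85% of promoters. TGACATCA began at −67 of JUN and −123 of an ATF3 promoter, and 2.61% of promoters held it. TATAAA began at −33 of FOS, −31 of JUNB, −30 of FOSB and −230 of an ATF3 promoter, and 11.5% of promoters held it. These are matches of letters and not measured binding.

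ATF3, a stress-induced bZIP protein that acts as a repressor as a homodimer, is encoded at chr1:212738676-212794119 on the plus strand and was measured as 6 transcripts. The largest after DAC, NM_001674, was at 0.922 FPKM untreated (0 and 2.55) and 4.64 FPKM after DAC (0.508 and 8.77), a ratio of 5.03 with overlapping bounds. Summed over its transcripts, ATF3 was at 2.63 and 8.04 FPKM, a ratio of 3.06. Reads assigned to it numbered about 199 and 618. The share of NM_001674 in the summed value was 35.0% before and 57.7% after DAC. For NM_001030287 the shares were 61.2% and 31.9%, and its own level was 1.61 FPKM (0 and 3.79) and 2.56 FPKM (0 and 6.04). In HMLER cells, 3 ATF3 transcripts were listed as higher after DAC, from 1.39 to 14.7 FPKM for NM_001674, from 0.857 to 13.4 FPKM for NM_001030287 and from 0.296 to 4.41 FPKM for NM_001206486.

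**Figure D2:**
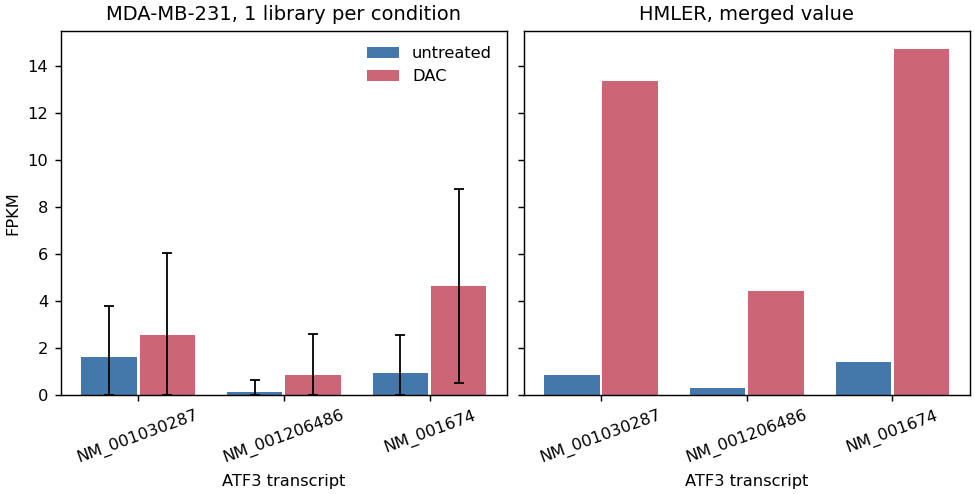
FPKM of the 3 ATF3 transcripts listed in HMLER, in untreated and DAC-treated libraries of each cell line; MDA-MB-231 bars carry Cuffdiff bounds, and HMLER bars are the authors' merged values without an error. In HMLER the treated levels of the 3 transcripts are 14.7, 13.4 and 4.41 FPKM.

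BATF and BATF3 lack a transactivation domain and are best known in immune cells. BATF3, at chr1:212859759-212873182 on the minus strand, measured 11.7 FPKM untreated (2.27 and 21.0) and 13.1 FPKM after DAC (2.67 and 23.6), with a log2 change of 0.16. BATF, at chr14:75988798-76013336 on the plus strand, was listed at 0 in the untreated library, where a count of 0 allows up to 3 reads or 0.0952 FPKM, and at 0.289 FPKM after DAC, about 9 reads. It stayed under the 1 FPKM level in both and entered no count. Leukocyte markers were near 0, with a highest value of 0.512 FPKM and none reaching 1 FPKM.

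The composition of the families was compared by summing FPKM. The FOS group held 310.0 ± 142 FPKM before and 142.7 ± 45.7 FPKM after DAC, the error being the bounds combined in quadrature, a ratio of 0.460 ± 0.258. FOSL1 made up 90.2% of it untreated and 66.4% after DAC, but the ranges that the bounds allow, 74.9 to 96.5% and 42.0 to 85.2%, overlapped. The share of FOS was 0.852% and 9.85%, and that of FOSL2 8.86% and 22.0%. The JUN group as a whole held 125.0 ± 45.8 and 124.0 ± 34.2 FPKM, a ratio of 0.992 ± 0.455. Within it, JUN made up 73.6% untreated (48.5 to 90.2%) and 23.1% after DAC (10.1 to 44.5%), ranges that did not overlap. JUND held 19.3% and 48.4%, and JUNB held 7.16% and 28.5%. ATF3, BATF and BATF3 summed to 14.3 ± 9.67 and 21.5 ± 11.7 FPKM.

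**Figure D3:**
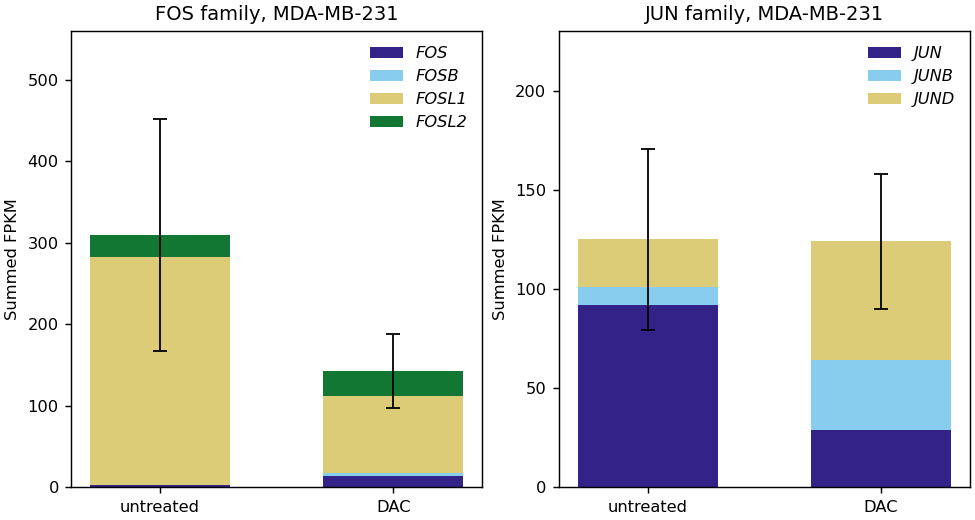
Summed FPKM of the FOS family (left) and JUN family (right) in the untreated and DAC-treated MDA-MB-231 libraries, stacked by gene, with error bars from the Cuffdiff bounds combined in quadrature. The JUN family sum is 125.0 and 124.0 FPKM while the JUN part is 73.6% and 23.1% of it; the FOSB slice is too thin to see.

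Ordered by level, the untreated library ran FOSL1, JUN, FOSL2, JUND, BATF3, JUNB, FOS, ATF3, FOSB, BATF, and the bounds of neighbours stayed apart for FOSL1 and JUN and for JUN and FOSL2 alone. After DAC the order was FOSL1, JUND, JUNB, FOSL2, JUN, FOS, BATF3, ATF3, FOSB, BATF, and the bounds of every pair of neighbours overlapped. JUN moved from the second to the fifth place.

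In HMLER cells the table listed transcripts that were more than 2-fold higher after DAC, with 1 merged value per condition and no bounds, so nothing can be said of members it does not list. It held FOS, FOSB and ATF3, 3 of the 9 members beside 10.9% of the 12396 genes. Higher in both lines were thus 3 of the 9 members, beside 3.8% of the 12396 genes. Of the 1346 genes listed in HMLER, 471 were called higher in MDA-MB-231. On the largest transcripts, FOS alone was left when 1 FPKM was required in both conditions, when 5 FPKM was required in at least 1, or when bounds had to stay apart. The summed ATF3 values in MDA-MB-231, 2.63 and 8.04 FPKM, reach both of these FPKM minimums. FOS went from 4.81 to 15.5 FPKM, FOSB from 0.388 to 1.998 FPKM, and ATF3, summed over transcripts, from 2.54 to 32.5 FPKM, 12.8-fold higher. The tables were scaled separately, so levels are not compared between the lines. The libraries of MDA-MB-231 also differed in their median: the ratio of DAC over untreated was 0.908 over genes with at least 1 FPKM in both, a shift of −0.14 on the log2 scale, and dividing by it gave 0.507 for the FOS group and 1.09 for the JUN group without ending any call among the members.

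**Figure D4:**
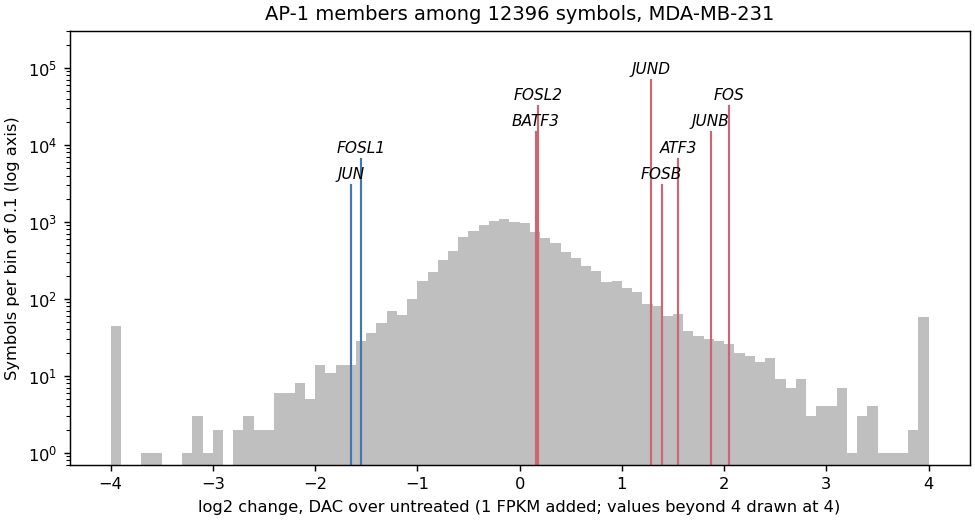
Histogram of the log2 change (DAC over untreated, after adding 1 FPKM) over the 12396 genes of MDA-MB-231 cells that reached 1 FPKM, with the AP-1 members marked. FOS (2.05) and JUNB (1.87) lie in the upper tail and JUN (−1.65) and FOSL1 (−1.55) in the lower, with FOSL2 and BATF3 near the centre.

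Strand was not stated for the counting, so reads of genes on opposite strands cannot be told apart. In GENCODE release 44, lifted to hg19, an extended HOOK2 model covers JUNB and ERCC1 covers FOSB, although the loci given in the deposited table do not overlap. HOOK2 measured 2.19 FPKM untreated and 11.9 FPKM after DAC, and ERCC1 131 and 170.0 FPKM, a ratio of 1.30. Their part in the JUNB and FOSB values was not tested.

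Genes around AP-1 were described from lists of names, whose counts are to be read beside the shares of all genes, 11.5% higher, 5.86% lower and 3.8% higher in both lines. The serum response factors showed 0 calls among 6 measured, with a median log2 change of −0.05. Of 31 measured upstream kinases and phosphatases, 2 were called higher and 1 lower, with a median of −0.13. The higher ones were the p38 kinases MAPK11, 2.69 to 13.1 FPKM with bounds apart, and MAPK13, 16.4 to 35.3 FPKM with overlapping bounds. MAP2K5 was called lower on its largest transcript alone: summed over 3 transcripts it was at 5.07 and 2.89 FPKM, a ratio of 0.570.

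Among 25 measured bZIP partners of AP-1, 5 were called higher (BATF2, DDIT3, MAFA, MAFF and MAFK) and 2 lower (ATF4 and CREB1), with a median log2 change of 0.04. MAFA went from 0.0865 to 3.60 FPKM with bounds apart. The small MAF genes, whose products lack a transactivation domain, measured 12.4 and 27.2 FPKM (MAFF) and 7.78 and 16.1 FPKM (MAFK), with overlapping bounds. Summed over its 4 transcripts, MAFF was at 19.0 and 29.5 FPKM, a ratio of 1.55 that does not pass the 2-fold threshold. DDIT3, which encodes the stress factor CHOP, measured 6.51 FPKM (0 and 24.5) and 18.6 FPKM (0 and 43.3), with overlapping bounds. Summed over its 6 transcripts, DDIT3 was at 9.12 and 21.4 FPKM, a ratio of 2.35. MAFA, DDIT3, MAFF and MAFK were also listed as higher in HMLER cells.

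Of 24 measured other immediate early genes, 6 were called higher and 4 lower, with a median log2 change of −0.11. EGR1, a zinc finger factor induced along with FOS, measured 17.9 FPKM (9.32 and 26.4) and 113 FPKM (58.4 and 168), with bounds apart. SOCS3, a feedback inhibitor of cytokine signalling, measured 40.5 FPKM (22.2 and 58.8) and 8.66 FPKM (3.56 and 13.8), 4.68-fold lower with bounds apart. Higher in both lines were 4 of the 24, beside 3.8% of all genes, with overlapping bounds in MDA-MB-231. These were NR4A1, BTG2, ARC and PTGS2, the last of which encodes the cyclooxygenase COX-2. NR4A1 was listed near 0 on its largest transcript untreated; its sum over transcripts was 0.872 and 2.45 FPKM. In HMLER cells, 10 of the 24 were listed as higher, beside 10.9% of all genes. Among these 10 were KLF2 and KLF10, which were called lower in MDA-MB-231 with overlapping bounds.

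Of 28 measured genes known as AP-1 targets, 8 were called higher and 3 lower, beside 11.5% and 5.86% of all genes, with a median log2 change of 0.02. The higher ones were MMP1, MMP3, IL11, IL1A, IL1B, FN1, TIMP1 and SPP1, and the lower ones included VIM and EDN1. MMP1, an interstitial collagenase gene with a well-known AP-1 site, had a log2 change of 4.03 and IL11 of 1.55, each with bounds apart. IL1A measured 1.40 and 4.66 FPKM and IL1B 0.598 and 1.59 FPKM, with overlapping bounds. MMP1, IL11, IL1A and IL1B were the 4 targets called higher in both lines, beside 3.8% of all genes. Of the 28 targets, 13 were listed as higher in HMLER, beside 10.9% of all genes. The table also listed 7 of the 25 bZIP partners, 4 of the 31 kinases and phosphatases and 0 of the 6 serum response factors. The list median lay near that of all genes, −0.09.

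**Figure D5:**
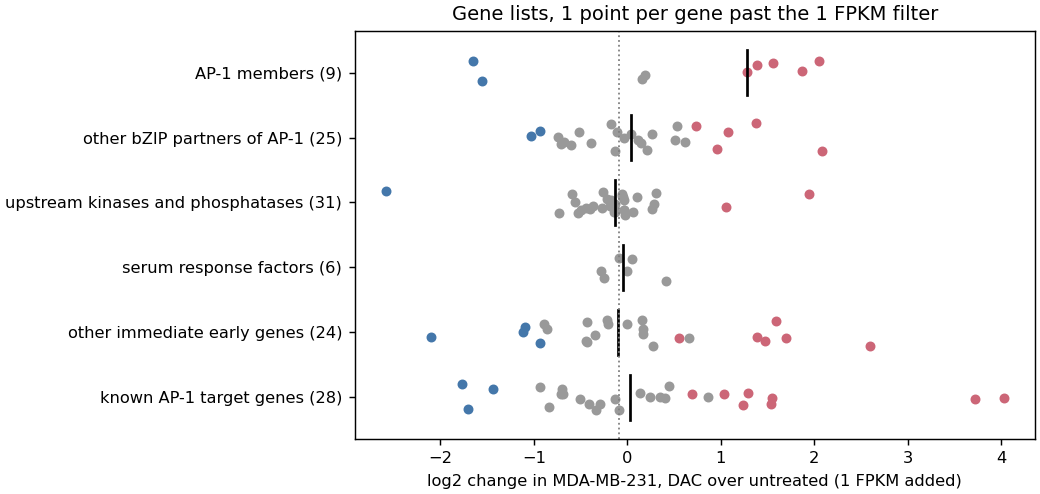
Log2 change (DAC over untreated, after adding 1 FPKM) of every measured gene in the AP-1 family and in each list of genes around it, in MDA-MB-231 cells. The medians of the other lists lie between −0.13 and 0.04 and that of the 9 AP-1 members at 1.28. The AP-1 median is 0.18 when 1 FPKM is required in both conditions, which leaves out FOSB and, on its largest transcript, ATF3. Single genes of the other lists reach further than any member, as MMP1 at 4.03 and SOCS3 at −2.10. MAP2K5 is drawn at −2.59 on its largest transcript, whereas its ratio summed over transcripts is 0.570.

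The genes nearest to FOS in log2 level over the 4 values of both lines were sought among 1345 genes. All of these were listed as more than 2-fold higher in HMLER, so they shared that rise with FOS beforehand. The nearest were TM7SF2 (distance 0.513), SLC43A2 (0.682) and RELB (0.724). For JUN, over the 2 MDA-MB-231 values and 12395 genes, they were MIR4691 (0.136), whose short length leaves its value uncertain, SCD (0.215) and SLC25A24 (0.284). These distances share the same libraries.

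Identity markers of the MDA-MB-231 line were read in the same libraries. VIM, the mesenchymal intermediate filament gene, was at 3066 FPKM untreated and 1134 FPKM after DAC, and the luminal receptor genes ESR1 and PGR were listed at 0 untreated and at 0.0150 and 0.0553 FPKM after DAC. The 6 mesenchymal markers summed to 3271 and 1339 FPKM, a sum carried by VIM, which was called lower. FN1 (29.1 and 86.1 FPKM), SPARC (2.09 and 11.3 FPKM) and CDH2 (0.0902 and 1.06 FPKM) were called higher. ZEB1 (14.8 and 9.11 FPKM) and CD44 (159 and 98.2 FPKM) had lower values after DAC without passing the threshold. The median log2 change of the 6 was 0.14, and CD44 was listed as higher in HMLER. Of 10 luminal markers, 7 reached 1 FPKM and 2 were called higher, KRT19 (0.518 and 13.5 FPKM) and GATA3 (0.0840 and 1.71 FPKM). FOXA1, KRT19 and EPCAM were listed as higher in HMLER. Fibroblast markers, of which COL1A1 and PDGFRB among 5 reached 1 FPKM and were called higher, summed to 1.11 and 17.3 FPKM, with COL1A1 at 0.853 and 15.6 FPKM and DCN and LUM near 0, and endothelial markers stayed under 1 FPKM. Of 5 basal markers, ITGB4 alone reached 1 FPKM in MDA-MB-231, and the basal keratin genes KRT5, KRT14 and KRT17 were listed as higher after DAC in HMLER. Any part of these marker differences in the AP-1 values was not tested.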

How the data were processed

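RNA sequencing libraries of poly(A) RNA (6 in all) were aligned by the authors with TopHat2 to hg19 and quantified with Cuffdiff on a Galaxy server; their versions and scaling are not given in the sources used here. The deposited FPKM values were used as they stand, with Cuffdiff bounds where given. The HMLER table holds the authors' merged value per condition over 2 libraries, for transcripts that were higher after DAC only. The untreated MDA-MB-231 library was assigned by its title, since another label spells the line differently. Fold change, p-value and q-value columns of the authors' own comparison were not used.

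Transcripts were reduced to the largest per symbol (43497 to 23617), and 12396 symbols with at least 1 FPKM in at least 1 condition were kept. Calls used a ratio above 2, and log2 changes a pseudocount of 1 FPKM. Genes named outside the family were taken from lists, namely those called higher in both lines or called with bounds apart, up to 5 a list by log2 change; genes given by name alone to spell out a count and KLF2 and KLF10 were added after their values were seen. A gene of the target list is not reported here by name. Read numbers were recovered from the steps of low FPKM, all 651 of which, in each library, came within 0.1 of an integer number of reads; ratios have 95% exact intervals for counting error only. No test between conditions was run, since MDA-MB-231 had 1 library per condition. The alternatives were other FPKM minimums, pseudocounts, summed transcripts, median scaling and non-overlapping bounds. Calls and read steps were tested on simulated data. The members and lists were chosen with earlier results of these data known. Python 3.11.15, pandas 2.3.3, numpy 2.4.6 and scipy 1.17.1 were used.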

Additional observations from a re-analysis of the deposited data

Results flagged for a closer look

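EDN1, which encodes endothelin-1 and is a known AP-1 target, went in opposite directions in the cell lines. In MDA-MB-231 it measured 33.5 FPKM untreated (bounds 17.0 and 49.9) and 9.59 FPKM after DAC (3.46 and 15.7), a log2 change of −1.70. In HMLER the merged values were 0.0710 and 2.32 FPKM. The difference between the lines was not tested, since neither line has more than 1 value per condition. KLF2 and KLF10, immediate early genes of the Krüppel-like family, did so as well. KLF2 measured 11.5 and 5.54 FPKM in MDA-MB-231, a log2 change of −0.93 with overlapping bounds, and 0.463 and 2.88 FPKM in HMLER. KLF10 measured 32.0 and 14.2 FPKM, a log2 change of −1.12 with overlapping bounds, and 0.823 and 3.40 FPKM in HMLER. These differences were not tested either. Only transcripts that rose were listed in HMLER, so any listed gene that was lower in MDA-MB-231 shows opposite directions. The share of all genes that were lower in MDA-MB-231 and listed in HMLER was not computed, so how common such pairs are is not known here.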

How the results depend on the processing

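No paired analysis was possible because each HMLER condition was deposited as 1 merged value and MDA-MB-231 had 1 library per condition; leaving out a library was not possible for the same reason. Of 5 members called higher in MDA-MB-231, 3 were left with at least 5 FPKM in at least 1 condition, 3 with at least 1 FPKM in both conditions and 2 with bounds that do not overlap. Of 3 higher in both lines, 1 was left under each of these settings. The median log2 change of 1.28 was 0.18 with at least 5 FPKM and also 0.18 with at least 1 FPKM in both. With a pseudocount of 0.1 or 0.01 FPKM the log2 change of FOSB was 2.58 or 2.86, and that of BATF 1.96 or 4.90. No called difference turned its direction under any alternative; the JUN group ratio, 0.992 ± 0.455, was 1.09 after division by the median ratio. With no filter on low values the median log2 change of the members was 0.83. The FOSL1 and JUN shares were also computed with an alternative chosen after seeing the data, largest transcripts alone, and moved by less than their ranges.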
